A study of Gallus gallus with 28 samples.

Results

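The response described here is the change in gene expression after 6 h of stimulation of the B-cell receptor in DT40, a chicken B-cell lymphoma line with surface IgM. Its members are 6 of the 28 arrays, taken by title and paired by the batch of fetal calf serum in which the cells were grown. They are 3 arrays of stimulated cells at 6 h (S6) and 3 of unstimulated cells at 6 h (C6), 1 of each from serum batches 1, 2 and 3. All 6 are parental cells that keep their own Btk gene, and every array held RNA pooled from 10 repeated experiments. The stimulus is labelled IgM (M4), and M4 is the name of a mouse monoclonal antibody that binds chicken IgM. Further groups are used for comparison. B7.10 is the line in which Btk was knocked out, with 3 S6 and 3 C6 arrays in the same 3 serum batches. B41-13 is the knockout with human BTK added, and B46-5 is the knockout with human BTK that has no kinase activity, each with 1 S6, 1 C6 and 1 2 h stimulated array in serum batch 1. DT40 itself also had 1 array after 2 h of stimulation (S2, serum batch 1) and 3 unstimulated arrays at 24 h (C24). Every line is a derivative of 1 transformed cell line, and the sources used here do not state how many clones stand behind each mutant. The pools share the line, so they are repeats within 1 line. Unless another fit is named, p-values rest on the spread within groups over 18 arrays of DT40 and B7.10 (S6, C6 and C24). Shifts that all arrays of a serum batch share are removed first. The spread is therefore not that of the 3 DT40 pairs alone.

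When IgM is crosslinked on a B cell, Src-family kinases phosphorylate the CD79 chains of the receptor, SYK is recruited, and adaptors assemble BTK, phospholipase C gamma and phosphoinositide 3-kinase at the membrane. Calcium, protein kinase C, NF-kB and ERK signals follow. Immediate-early transcription factors are known to peak early and to decline again, while surface molecules, cytokines and signalling proteins change later. BTK is a Tec-family kinase that activates phospholipase C gamma in this pathway. Roles of genes given below are those known from mammals unless stated otherwise.

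The arrays report log2 signal per probe set, and a mean under 3.98 log2 counts as near background because the dimmest 40% of probe sets lie there. The medians of the 6 arrays lay between 4.41 and 4.45 log2, and the labels of these 6 arrays did not contradict their titles. Of the B-cell markers 12 of 12 measured genes were above background in C6, with CD79B at 11.16 log2 in S6 and 11.07 in C6. BTK was at 9.34 to 9.77 log2 in S6 and 9.67 to 9.93 in C6, a change of -0.21 ± 0.12 (SE, n = 3 pairs; limma, Benjamini-Hochberg adjusted p = 0.665), while in B7.10 it was at 4.70 to 5.14 log2 in S6 and 4.74 to 5.09 in C6. Markers of other cells were also above background in C6 for 6 of 8 T-cell genes, 3 of 5 myeloid genes and 3 of 5 fibroblast genes. The T-cell gene CD3D was bright, at 11.85 log2 in S6 and 11.98 in C6, while CD4 and CD28 were near background. The epithelial genes CDH1 and EPCAM were near background. The signal of actin probe sets at the 3′ end over the 5′ end, a measure of RNA integrity, was 0.48, 0.35 and 0.49 log2 in the S6 arrays of serum batches 1, 2 and 3, against 0.51, 0.66 and 0.84 in the C6 arrays. The actin measure was lower in S6 in every serum batch, though close to C6 in serum batch 1. The same measure for GAPDH was -0.22, -0.20 and -0.18 log2 in S6 and -0.22, -0.12 and -0.11 in C6, equal in serum batch 1. The part of RNA integrity in the results below was not tested.

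The comparison of S6 with C6 asks which genes respond to the receptor. After 6 h the transcripts with a gene symbol that had risen furthest were those of BASP1, a protein attached to the inner face of the plasma membrane, K123, the cytokine IL18, the asparaginase ASPG, the Src-family kinase FYN, the surface peptidase MME and the adaptor GRAPL. Of 38382 probe sets tested, 41 differed between S6 and C6 (0.107%), with 40 higher in S6 (0.104%) and 1 lower (0.00261%), by limma with the serum batch as a block and a Benjamini-Hochberg adjusted p under 0.05. At an unadjusted p under 0.05 there were 2086 higher (5.43%) and 1402 lower (3.65%). These 41 probe sets read 30 named genes through 36 probe sets, and 5 have no gene symbol. In all 41 the S6 arrays lay entirely on the called side of the C6 arrays, which was also so for 8.49% of all probe sets upwards and 8.26% downwards. The 40 that rose changed by 0.44 to 2.28 log2 with a median of 0.93, and 18 changed by at least 2-fold. Without the block 17 probe sets were called, all higher (0.0443%) and all among the 41. They read BASP1 (on both probe sets), K123, IL18, MME, GRAPL, LGALS1A, HAVCR1, PI15, MATK, ARHGAP25, NAB1, PIK3CB and BCAT1 (on 1 probe set each), and 3 of them have no symbol. Fitted to the 6 arrays alone, with 2 residual degrees of freedom, 358 probe sets were called (0.933%), 267 higher and 91 lower, and the 41 were among them, so the count and the balance of directions depend on which arrays estimate the spread. Each array reads RNA pooled from whole cultures of 10 experiments. A change in the share of responding cells or experiments and a change of RNA per cell therefore cannot be told apart. With the block, leaving out a single array gave 17 and 12 calls without the S6 array of serum batch 1 or 2, and 19 and 16 without the C6 array of serum batch 2 or 3.

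**Figure D1:**
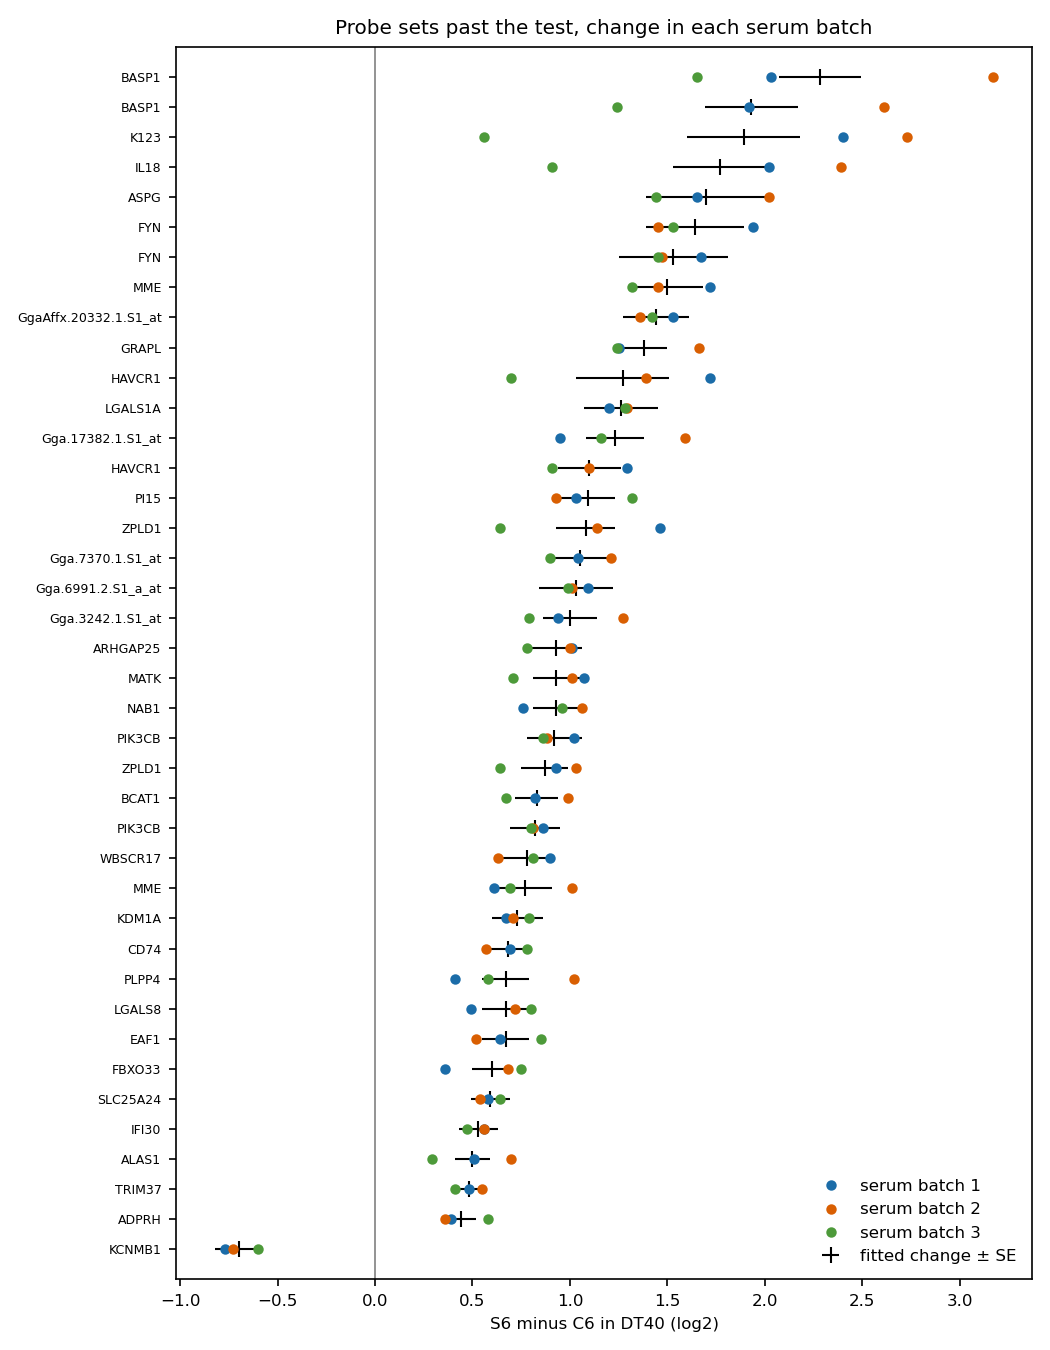
Change from C6 to S6 in DT40 (log2, horizontal axis) for the probe sets past the test, except that of 1 gene not reported here, 1 row each, named by gene or by probe set where there is no symbol. Coloured points are the 3 serum batches, and the tick with its bar is the fitted change ± SE. All points of the rows above KCNMB1 lie right of 0 and all 3 of KCNMB1 lie left of it.

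The size of the response varied between the 3 serum batches. Each batch had 1 S6 and 1 C6 array, so effects of serum, pool and array cannot be told apart. The risers, 40 probe sets, had a median change of 0.98 log2 in serum batch 1, 1.02 in serum batch 2 and 0.80 in serum batch 3. For 24 of the 40 the smallest change was that of serum batch 3, against 8 for each of the other batches. K123 changed by 2.40, 2.73 and 0.56 and IL18 by 2.02, 2.39 and 0.91 in serum batches 1, 2 and 3. LGALS1A changed by 1.20, 1.29 and 1.28, and FYN by 1.67, 1.47 and 1.45 on its brighter probe set. K123, IL18 and BASP1 therefore differed most between batches in absolute size, and the kinase FYN and the galectin LGALS1A had close values in all 3. Over all 38382 probe sets, which are not independent replicates, the changes of serum batches 1 and 2 correlated with r = 0.293, those of 1 and 3 with r = 0.231 and those of 2 and 3 with r = 0.421. Without a test, 10 probe sets were at least 1 log2 higher in S6 in every serum batch (0.0261%) and 0 were lower by as much. At a size of 0.5 log2 the counts were 64 higher (0.167%) and 15 lower (0.0391%).

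Among molecules of the cell surface, the secretory path and the inner membrane, BASP1 stood at 9.58, 10 and 9.10 log2 in S6, against 7.55, 6.83 and 7.45 in C6, for serum batches 1, 2 and 3. The lowest S6 array was above every C6 array by more than the spread within either group. The fitted change was 2.28 ± 0.21 log2 (SE, n = 3 pairs; limma, adjusted p = 5.18e-05), or 4.86-fold, and the other BASP1 probe set changed by 1.93 ± 0.24 (adjusted p = 0.00171). IL18, an inflammatory cytokine of the IL-1 family, had 7.79, 8.31 and 6.70 log2 in S6 and 5.76, 5.92 and 5.80 in C6. Its C6 arrays were almost equal, and the S6 array of serum batch 3 stood apart from the other S6 arrays while still above C6. The change was 1.77 ± 0.24 (adjusted p = 0.0036), and the dimmer IL18 probe set changed by 1.05 ± 0.23 without passing the test (adjusted p = 0.106). MME, also known as CD10 or neutral endopeptidase and a marker of early B-lineage cells, had 8.09, 7.95 and 7.37 log2 in S6 and 6.38, 6.50 and 6.05 in C6. The groups did not overlap, and the change was 1.50 ± 0.18 (adjusted p = 0.00171), with 0.77 ± 0.14 on a further called probe set (adjusted p = 0.0341). K123 had 6.09, 6.51 and 4.501 log2 in S6 and 3.69, 3.79 and 3.95 in C6. The S6 array of serum batch 3 was well below the other S6 arrays, and C6 lay near background. Its change was 1.89 ± 0.29 (adjusted p = 0.00975).

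**Figure D2:**
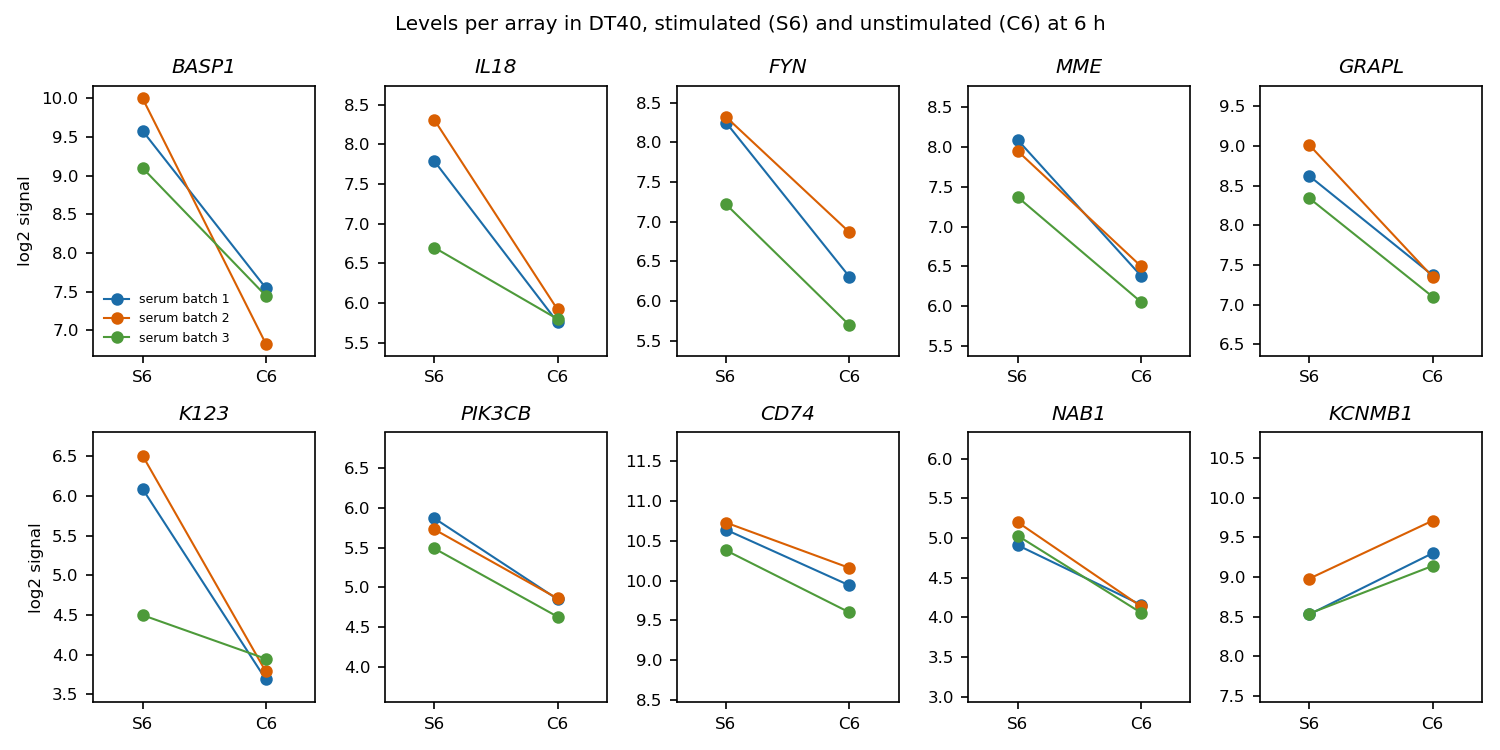
Log2 signal of 10 genes in each of the 3 S6 and 3 C6 arrays of DT40, with a line joining the 2 arrays of a serum batch (colour). Each panel has its own range on the vertical axis. A gene with several called probe sets is shown by the one with the largest fitted change, which for FYN is not its brighter one. In 9 panels every S6 point is above every C6 point, as for BASP1 with 9.10 to 10 in S6 and 6.83 to 7.55 in C6, and in the KCNMB1 panel every S6 point is below.

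HAVCR1, also called TIM-1 and a surface receptor for phosphatidylserine, rose on 2 probe sets, by 1.10 ± 0.16 log2 (adjusted p = 0.00635) and by 1.27 ± 0.24 (adjusted p = 0.0464, from near background in C6). A further HAVCR1 probe set changed by 0.08. The galectins bind sugars on cell-surface proteins. LGALS1A had 8.31, 8.93 and 8.01 log2 in S6 and 7.11, 7.64 and 6.72 in C6, a rise of 1.26 ± 0.19 (adjusted p = 0.00635). The ranges of the groups lay apart although both followed the serum batch. LGALS8 rose by 0.67 ± 0.12 (adjusted p = 0.0332; 0.0957 without the block) on the called one of its 6 probe sets, while the other 5 changed by -0.04 to 0.58. The secreted protein PI15, named as a peptidase inhibitor, had 5.68, 5.54 and 5.56 log2 in S6 and 4.65, 4.61 and 4.24 in C6, a rise of 1.09 ± 0.14 (adjusted p = 0.00213). ZPLD1, a membrane protein with a zona pellucida domain, rose by 1.08 ± 0.15 and 0.87 ± 0.12 on 2 of its 4 probe sets, with adjusted p of 0.00502 and 0.0036 that were 0.135 and 0.0823 without the block.

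Among signalling proteins GRAPL, an adaptor related to GRB2, had 8.62, 9.01 and 8.34 log2 in S6 and 7.37, 7.35 and 7.096 in C6. The 3 C6 arrays were close together and the S6 arrays were well above them. The change was 1.38 ± 0.12 (SE, n = 3 pairs; limma, adjusted p = 5.18e-05), or 2.61-fold, and the other GRAPL probe set changed by -0.17 ± 0.13 (adjusted p = 0.757). FYN, a kinase that phosphorylates receptor chains as LYN does, had 10.13, 10.24 and 9.52 log2 in S6 and 8.46, 8.78 and 8.07 in C6 on its brighter probe set. Both groups were lowest in serum batch 3, and no C6 array reached the lowest S6 array. The changes were 1.53 ± 0.28 (adjusted p = 0.0398) and 1.64 ± 0.25 (adjusted p = 0.01) on its 2 probe sets, and the adjusted p without the block were 0.177 and 0.0715. MATK, a kinase that phosphorylates the inhibitory tail of Src-family kinases, had 8.36, 7.91 and 7.73 log2 in S6 and 7.29, 6.89 and 7.02 in C6, a rise of 0.93 ± 0.12 (adjusted p = 0.00178). PIK3CB, the beta catalytic subunit of phosphoinositide 3-kinase, rose by 0.92 ± 0.14 (adjusted p = 0.00677) and 0.82 ± 0.13 (adjusted p = 0.00975), and its uncalled probe set changed by 0.56. ARHGAP25, which switches off the small GTPase Rac, rose by 0.93 ± 0.13 (adjusted p = 0.0047).

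Of genes of antigen presentation by MHC class II, IFI30 rose, and CD74 rose on 1 of its 3 probe sets. IFI30, the lysosomal thiol reductase that opens disulphide bonds of antigens, had 9.63, 9.64 and 9.37 log2 in S6 and 9.07, 9.08 and 8.91 in C6, a change of 0.53 ± 0.10 (adjusted p = 0.0376). CD74, the invariant chain that guides class II molecules, had 10.64, 10.73 and 10.38 log2 in S6 and 9.94, 10.16 and 9.60 in C6 on the called probe set. The groups were apart for both genes, although by less than 1 log2. CD74 changed by 0.68 ± 0.12 there (adjusted p = 0.0341) and by 0.63 on each of its other 2 probe sets, which did not pass (adjusted p = 0.0752 and 0.104). Without the block the adjusted p was 0.269 for IFI30 and 0.148 for the called CD74 probe set. Both are among the 16 measured genes of a list of antigen presentation, of which IFI30 alone was called on its brightest probe set.

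Nuclear and metabolic genes were also called. NAB1, a corepressor of the EGR transcription factors, had 4.91, 5.20 and 5.03 log2 in S6 and 4.16, 4.14 and 4.06 in C6, both tight groups, and rose by 0.93 ± 0.12 (adjusted p = 0.00178). The histone demethylase KDM1A rose by 0.73 ± 0.13 on 1 of 3 probe sets (adjusted p = 0.0341), and the others changed by 0.63 and 0.15. EAF1, a partner of the elongation factor ELL, rose by 0.67 ± 0.12. The ubiquitin ligase parts FBXO33 and TRIM37 rose by 0.60 ± 0.10 and 0.48 ± 0.08 on 1 of 3 probe sets each. Their other probe sets changed by 0.42 and 0.15 for FBXO33 and by 0.22 and 0.14 for TRIM37. ASPG, which cleaves asparagine, had 7.72, 8.44 and 7.43 log2 in S6 and 6.08, 6.42 and 5.99 in C6, a rise of 1.70 ± 0.31 (adjusted p = 0.0416; 0.0771 without the block), whereas its other probe set changed by 0.03. BCAT1, the cytosolic enzyme that starts the breakdown of branched-chain amino acids, rose by 0.83 ± 0.11 (adjusted p = 0.00213). ALAS1, the entry enzyme of heme synthesis, rose by 0.50 ± 0.09 and SLC25A24, a calcium-regulated carrier of ATP-magnesium and phosphate in mitochondria, by 0.59 ± 0.10. The other SLC25A24 probe set changed by 0.37. The glycosyltransferase-like WBSCR17 rose by 0.78 ± 0.13, the lipid phosphatase PLPP4 by 0.67 ± 0.12 and ADPRH, which removes ADP-ribose from arginine, by 0.44 ± 0.08. Uncalled probe sets of these genes changed by 0.39 for WBSCR17, 0.71 for PLPP4, and 0.03 and 0.02 for ADPRH. For KDM1A, EAF1, FBXO33, TRIM37, ALAS1, SLC25A24, WBSCR17, PLPP4 and ADPRH the adjusted p lay between 0.0192 and 0.0388 with the block and between 0.067 and 0.459 without it.

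KCNMB1, a regulatory subunit of the calcium-activated potassium channel, was the gene that fell. It had 8.53, 8.98 and 8.54 log2 in S6 and 9.30, 9.71 and 9.14 in C6, and the groups did not overlap. The change was -0.70 ± 0.12 (SE, n = 3 pairs; limma, adjusted p = 0.0341; 0.34 without the block). Of the 5 probe sets with no gene symbol the 3 with the largest rise were GgaAffx.20332.1.S1_at at 1.44 ± 0.17, Gga.17382.1.S1_at at 1.23 ± 0.15 and Gga.7370.1.S1_at at 1.05 ± 0.14. The first of these had 6.38, 6.58 and 6.67 log2 in S6 and 4.84, 5.23 and 5.25 in C6. The named genes differ in how many probe sets bear out the call. There were 11 genes with 1 probe set and 6 with 2 called ones, which were BASP1, MME, ZPLD1, PIK3CB, FYN and HAVCR1. For 17 genes a further 27 probe sets were not called, of which 24 changed in the same direction and 11 were near background. These 24 changes ranged from 1.05 ± 0.23 for IL18 to 0.02 ± 0.09 for ADPRH, and some were smaller than their SE. A small change can share the direction by chance, and no share over all probe sets was counted, so the count of 24 is a description.

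Several genes stood just outside the threshold or moved alike in all serum batches without passing it, and were singled out after their values were seen unless a rule named them. Higher but not called were the ubiquitin ligase RNF19A at 0.49 ± 0.09 (adjusted p = 0.0512), the transcription factor MITF at 0.64 ± 0.12 (adjusted p = 0.0524) and the surface receptor SLAMF1 at 0.81 ± 0.16 (adjusted p = 0.0634). PLXNC1 and PTGFRN had changes of 0.63 and 0.73 (adjusted p = 0.0641 for both), and MAPK8 of 0.47 (adjusted p = 0.0667). CYBB, the heme-binding chain of the phagocyte NADPH oxidase, had 8.93, 9.04 and 8.35 log2 in S6 and 7.74, 7.95 and 7.09 in C6. Its change exceeded 1 log2 in every serum batch (1.19, 1.09 and 1.26), yet with 1.18 ± 0.36 it did not pass (adjusted p = 0.309). The SE also rests on B7.10 arrays, where CYBB had 4.20, 6.38 and 3.95 log2 in S6 and 4.06, 5.91 and 4.10 in C6. CYBB is 1 of 12 measured genes of a myeloid marker list, whose summed linear signal was 614 to 782 in S6 and 439 to 550 in C6. Without CYBB the other 11 genes summed to 257 to 287 in S6 and 283 to 303 in C6. At least 0.5 log2 lower in S6 in every serum batch, without a call, were 13 probe sets with 1 symbol. They include TNFRSF1B at -0.68 ± 0.13 (adjusted p = 0.0691), the inhibitory receptor BTLA at -0.69 ± 0.15 (adjusted p = 0.106) and the cytokine-signalling inhibitor SOCS1 at -0.72 ± 0.20 (adjusted p = 0.253). Also among them were 2 of the 3 probe sets of TNFSF13B, the B-cell survival factor BAFF. Those 2 were at -0.67 ± 0.19 and -0.60 ± 0.18 (adjusted p = 0.275 and 0.296).

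Across 24 gene lists, chosen with earlier results of these arrays known, the lists held calls in 3 cases. Each gene was read by its brightest probe set. Of all 13009 genes so read, 21 were called higher (0.161%) and 1 lower (0.00769%), and the median change was 0.00 log2. Of 41 measured components of receptor signalling 2 were called, GRAPL and FYN, with a list median of 0.07. The kinase PRKCB, a protein kinase C of this pathway, was at -0.62 ± 0.13 in the same list and did not pass (adjusted p = 0.106). At an unadjusted p under 0.05, 9 genes of that list were higher and 4 lower, where the shares of all genes were 6.0% and 4.02%. The receptor kinases SYK and LYN, singled out after their values were seen, were at -0.46 and -0.42 without a call (limma, adjusted p = 0.275 and 0.309). Of 16 genes of antigen presentation 1 was called, with a median of 0.04. The class II transactivator CIITA, near background in C6, was at 0.33 ± 0.14 (limma, adjusted p = 0.491). Of 26 surface and secreted genes 7 were called with a median of 0.14, but that list was drawn up with its members' changes known, so its count is no support. The other 21 lists, with 449 distinct genes, held 0 calls by limma. Of these 449 genes 28 (6.24%) were higher and 26 (5.79%) lower at an unadjusted p under 0.05, against 6.0% and 4.02% of all genes.

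**Figure D3:**
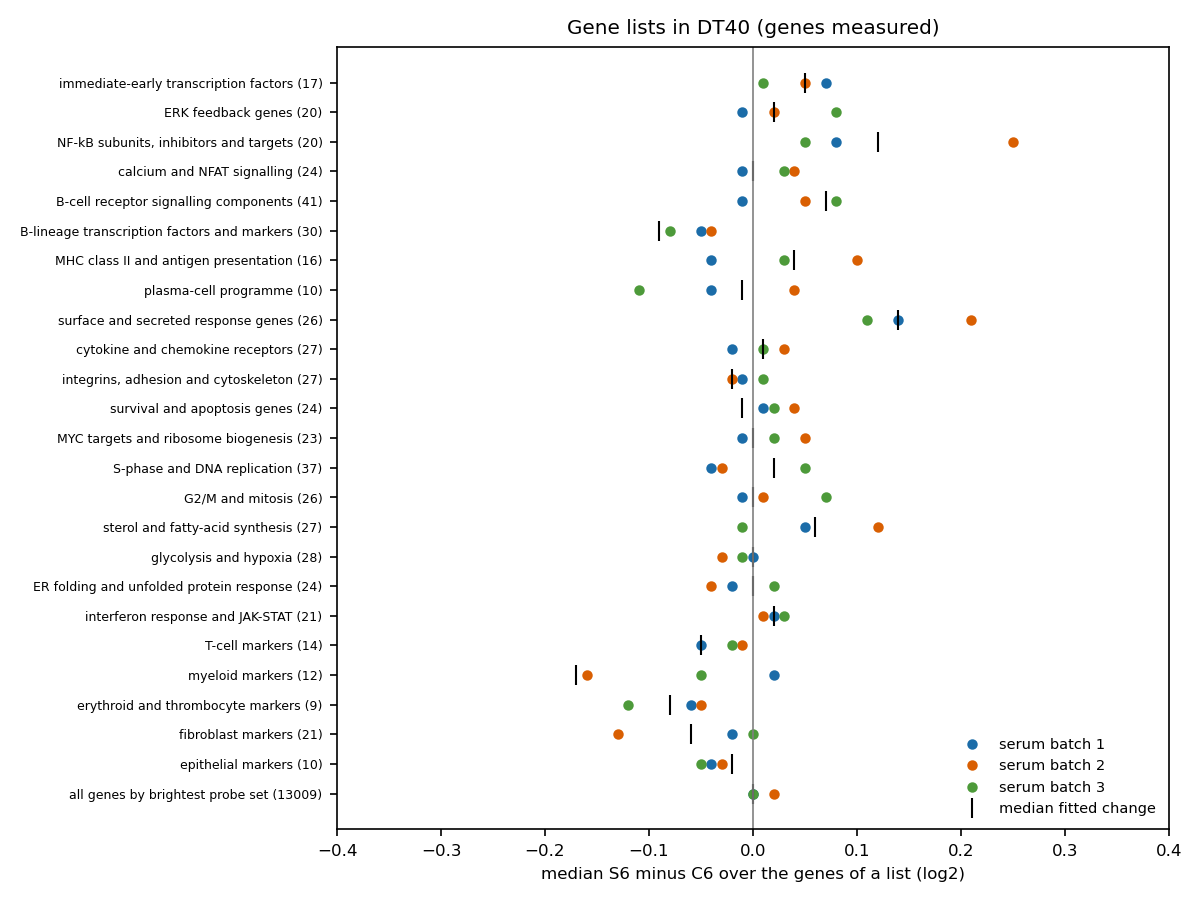
Median change from C6 to S6 in DT40 (log2, horizontal axis) over the measured genes of each of 24 lists and over all 13009 genes in the bottom row, with the number of genes in brackets. Points are the 3 serum batches and the tick is the median of the fitted changes. Medians of the fitted changes lie between -0.17 and 0.14, with 0.00 for all genes.

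Within the lists without a call the members nearest to one were as follows. Of 17 genes in the immediate-early list the leading members were NR4A2 at 0.28 ± 0.15, KLF2 at 0.23 ± 0.11 and CCN2 at -0.16 ± 0.09. NR4A2 and KLF2 are transcription factors, whereas CCN2 is a secreted protein. NR4A2 and CCN2 were near background in C6, and the list median was 0.05. Of 20 ERK feedback genes the phosphatases DUSP5 at 0.28 and DUSP1 at -0.22 led, and the median was 0.02. Of 20 NF-kB subunits, inhibitors and targets the dendritic and B-cell activation marker CD83 was at 1.07 ± 0.24 (adjusted p = 0.123) and the adaptor TRAF3 at 0.61 ± 0.14 (adjusted p = 0.146), with a median of 0.12. At an unadjusted p under 0.05 (limma), 6 of the 20 were higher and 2 lower, where the shares of all genes were 6.0% and 4.02%. This list was singled out for its counts after they were seen. CD83 had 4.12, 5.41 and 3.54 log2 in S6 and 3.29, 3.32 and 3.24 in C6, so it varied between serum batches from a C6 level near background. Calcium and NFAT genes had a median of 0.00, led by RCAN2 at -0.22, which was near background in C6. The B-lineage coactivator POU2AF1 was at -0.51 ± 0.12 (adjusted p = 0.151) and the transcription factor IKZF3 at -0.45 ± 0.13 (adjusted p = 0.298), both lower in every serum batch, in a list of 30 genes with a median of -0.09. The plasma-cell factor XBP1 was at -0.33 in a list with a median of -0.01. The list of 37 S-phase genes had a median of 0.02 and held members on both sides, with 2 higher and 5 lower at an unadjusted p under 0.05. The S-phase genes UHRF1 at -0.32 ± 0.09, E2F1 at -0.36 ± 0.11 and TYMS at -0.37 ± 0.11 were lower in every serum batch without a call (adjusted p = 0.295, 0.304 and 0.309). The list of mitosis had a median of 0.00 (ECT2 at 0.27). Lists of metabolism and protein folding had medians of 0.06 for sterol synthesis (HSD17B7 at 0.33 ± 0.08, adjusted p = 0.186), 0.00 for glycolysis, 0.00 for MYC targets and 0.00 for the unfolded protein response. Cytokine receptors had a median of 0.01, adhesion genes of -0.02, survival genes of -0.01 and interferon genes of 0.02. Marker lists of T cells, myeloid cells, erythroid cells, fibroblasts and epithelium had medians of -0.05, -0.17, -0.08, -0.06 and -0.02.

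The array of DT40 after 2 h of stimulation, in serum batch 1, shows where the 6 h genes stood earlier, without a replicate. Values are differences from the C6 array of that batch, which the 2 h and 6 h differences share, so the time in culture also differs between the 2 h array and C6. The 40 probe sets were chosen for S6 above C6 with the same S6 and C6 arrays, which favours a larger difference at 6 h than at 2 h, so the 2 values are given as a description. The 40 probe sets that rose had a median difference of 0.59 at 2 h and 0.98 at 6 h. At 2 h 22 of them were more than 0.5 log2 above C6 (3.18% of all probe sets), and at 6 h 35 were (0.917%). For 33 of the 40 the 6 h array was above the 2 h array. On their brightest probe sets BASP1 stood at 0.62 at 2 h and 2.03 at 6 h, MME at 0.70 and 1.72, and FYN at 0.32 and 1.67. The other called probe set of each was at 0.63 and 1.92 for BASP1, 0.48 and 0.61 for MME, and 0.95 and 1.94 for FYN. The 6 h array was the lower one for 7 probe sets, of FBXO33, K123, PIK3CB, SLC25A24 and ZPLD1. PIK3CB was at 2.27 and 2.10 at 2 h and at 1.02 and 0.86 at 6 h on its 2 called probe sets, and K123 was at 2.94 at 2 h and 2.40 at 6 h. KCNMB1 was at -2.29 at 2 h and -0.77 at 6 h, and its 2 h difference was -1.32 in B7.10, -1.78 in B41-13 and -1.67 in B46-5.

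Some genes without a call at 6 h were far from C6 at 2 h. CD83 was 5.54 log2 above C6 at 2 h and 0.83 at 6 h in serum batch 1, and TRAF3 was at 2.67 at 2 h and 0.77 at 6 h. The nuclear receptor NR4A2 was at 2.41 at 2 h and 0.28 at 6 h. TNFRSF1B, a receptor for TNF, was 1.42 above C6 at 2 h and -0.66 at 6 h, on the other side of C6. TNFSF13B was at -1.77 and -1.02 at 2 h and at -0.78 and -0.56 at 6 h on the same 2 of its 3 probe sets as above. Each of these rests on 1 array per time.

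**Figure D4:**
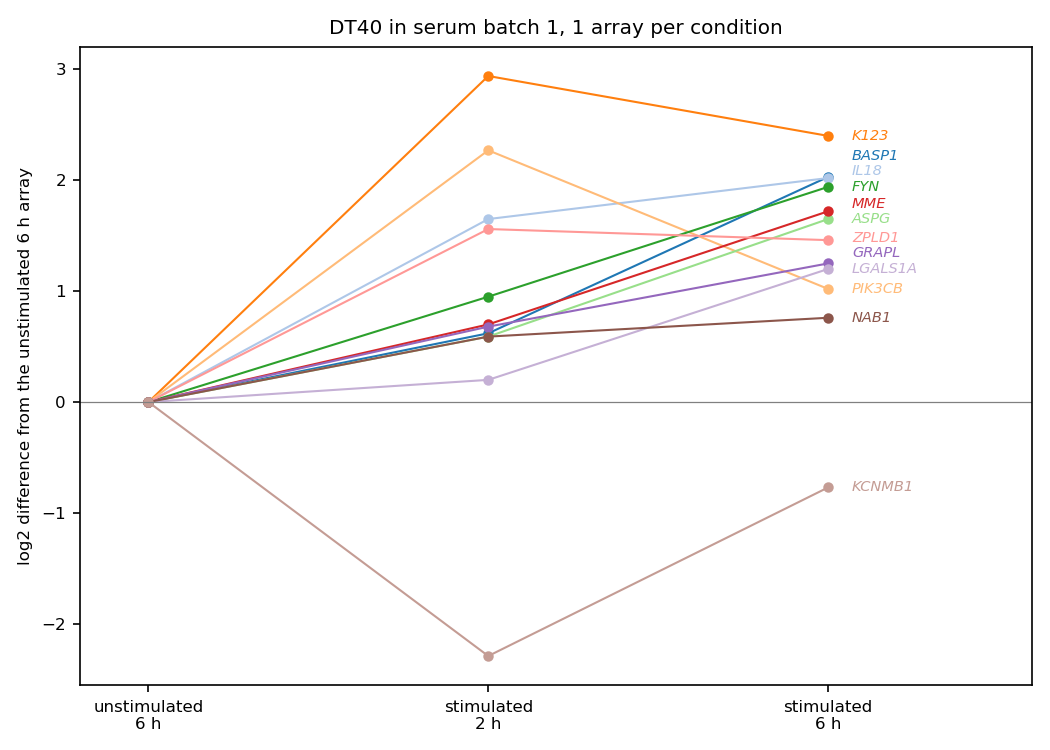
Difference from the unstimulated 6 h array (log2, vertical axis) for 12 genes in DT40 of serum batch 1: unstimulated at 6 h (set to 0), stimulated for 2 h and stimulated for 6 h, 1 array each. A gene with several called probe sets is shown by the one with the largest fitted change, which for FYN is not its brighter one. K123 and PIK3CB are higher at 2 h (2.94 and 2.27) than at 6 h (2.40 and 1.02), BASP1 goes to 0.62 and 2.03, and KCNMB1 is at -2.29 at 2 h and -0.77 at 6 h.

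The same 41 probe sets were followed in B7.10, to ask whether the response differs without BTK. They were chosen for their change in DT40, so their sizes in DT40 are a description. The description of 2 of the 3 S6 arrays of B7.10 disagrees with the title, for 1 in the serum batch and for 1 in whether the cells were stimulated. In B7.10 those 40 with a rise in DT40 had a median change of 0.12 log2, between -0.15 and 0.48, and 27 of them were within 0.25 of 0. The same fit called 616 probe sets in B7.10 (1.6%), 260 of them higher in S6 (0.677%). Of the 616, 2 are among the 41 of DT40, both higher in S6. They are SLC25A24 at 0.48 ± 0.10 and TRIM37 at 0.35 ± 0.08 (limma, adjusted p = 0.0382 and 0.0481). That is 4.88% of the DT40 calls and 0.325% of the B7.10 calls. Both fits share the estimate of spread but no array. This overlap is by probe set. Of the 27 uncalled probe sets of genes called in DT40, those called in B7.10 were of KDM1A and TRIM37. KDM1A was at 0.72 ± 0.13 there (limma, adjusted p = 0.0283) and 0.63 in DT40. TRIM37 was at 0.56 ± 0.12 there (limma, adjusted p = 0.0363) and 0.14 in DT40.

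The test of the difference between the responses called 2 probe sets (0.00521%), of BASP1 and GRAPL. BASP1 in B7.10 had 5.24, 5.55 and 5.53 log2 in S6 and 5.52, 5.28 and 5.29 in C6, so the groups overlapped and both lay below every DT40 array. Its response in B7.10 minus that in DT40 was -2.21 ± 0.29 log2 (SE, n = 3 pairs per line; limma, adjusted p = 0.0251). GRAPL in B7.10 had 8.19, 8.24 and 8.18 log2 in S6 and 8.19, 7.98 and 7.96 in C6, above the C6 arrays of DT40 at 7.096 to 7.37 and below its S6 arrays at 8.34 to 9.01. The difference of the responses was -1.23 ± 0.18 (adjusted p = 0.037). On the other GRAPL probe set, which changed by -0.44 in B7.10 and -0.17 in DT40, it was -0.27 ± 0.18 (adjusted p = 0.918). For MME it was -1.64 ± 0.26 and did not pass (adjusted p = 0.0955), and for IL18 it was -1.78 ± 0.35 (adjusted p = 0.253). The other BASP1 probe set was at -1.84 ± 0.33 (adjusted p = 0.165). These calls moved with single arrays. The count was 0 without the S6 array of DT40 in serum batch 1 or 2, the S6 array of B7.10 in serum batch 1 or 3, or the C6 array of B7.10 in serum batch 1 or 3. It was 1 without the C6 array of DT40 in serum batch 1 or 3, 11 without the S6 array of DT40 in serum batch 3, and 0 without the 2 arrays of disputed description, where 1850 probe sets had an unadjusted p under 0.05.

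The lines also differed before stimulation. For 28 of the 40 probe sets the mean of C6 was lower in B7.10 than in DT40, which held for 40.4% of all probe sets. LGALS1A was at 4.42 ± 0.01 log2 in C6 of B7.10 and 7.16 ± 0.46 in C6 of DT40, and FYN on its brighter probe set at 6.80 ± 0.28 in B7.10 and 8.44 ± 0.35 in DT40 (SD, n = 3 each). Other members had a C6 level at or above that of DT40. For MATK the C6 level was 7.45 ± 0.03 in B7.10 and 7.07 ± 0.20 in DT40, and the change after stimulation was 0.01 ± 0.12 in B7.10 against 0.93 ± 0.12 in DT40 (difference -0.92 ± 0.17, adjusted p = 0.165).

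**Figure D5:**
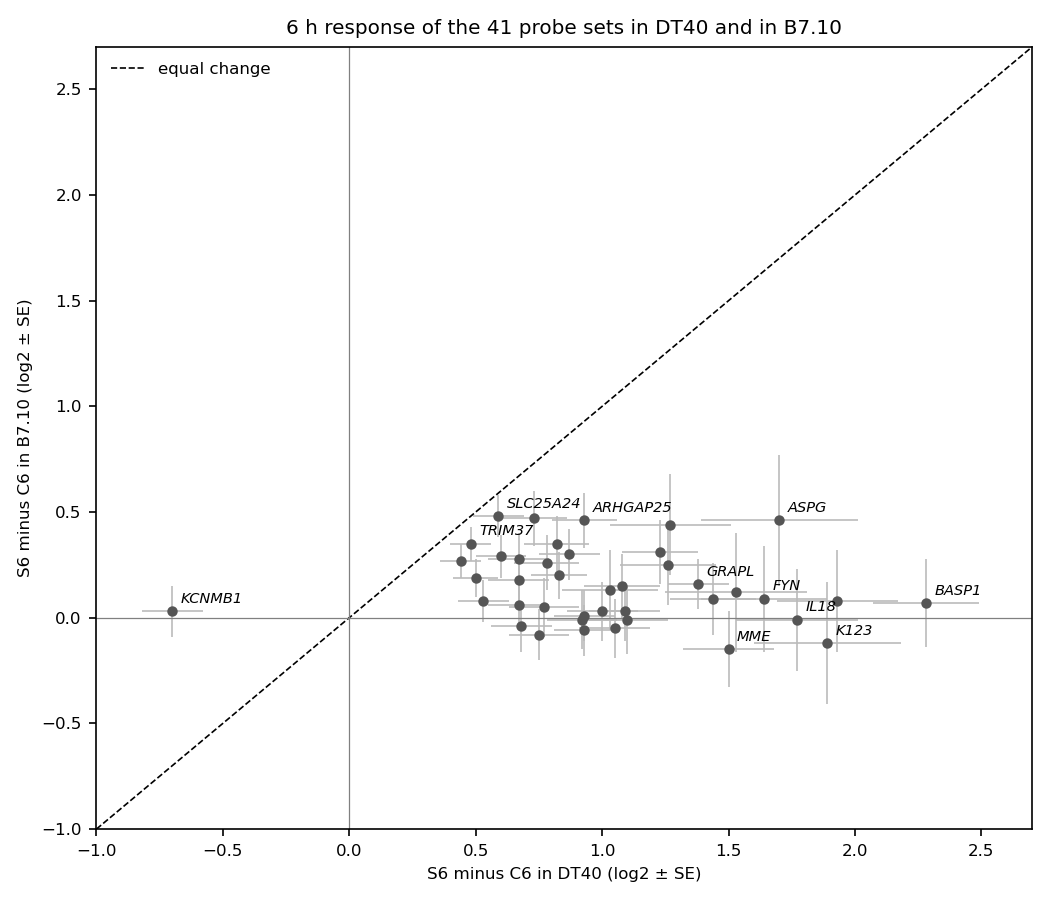
Change from C6 to S6 of the 41 probe sets in B7.10 (vertical axis) against the change in DT40 (horizontal axis), in log2 with bars of 1 SE, fitted over 3 arrays per group. The dashed line marks equal change. Every rise in DT40, for which these probe sets were chosen, lies below the dashed line, with B7.10 between -0.15 and 0.48, and BASP1 is at 0.07 in B7.10 and 2.28 in DT40.

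The lines made from the knockout had 1 S6 and 1 C6 array each, with no replicate, and the source name of both S6 arrays disagrees with the title, in time for both and in line for that of B41-13. In B41-13, with human BTK, the 40 probe sets had a median change of 0.54 log2 and 21 were above 0.5 (2.39% of all probe sets). In B46-5, with BTK that lacks kinase activity, the median was 0.15 and 2 were above 0.5 (1.04% of all). DT40 in the same serum batch had a median of 0.98 with 35 above 0.5 (0.917% of all). B7.10 in that batch had 5 of the 40 above 0.5, and its share over all probe sets was not counted. The 23 probe sets that rose in DT40 and were called there with the block but not without it are shown apart, since the serum block decides them. They had a median of 0.45 with 8 above 0.5 in B41-13, and of 0.23 with 1 above 0.5 in B46-5. In serum batch 1, 18 of these 23 were above 0.5 in DT40 and 3 in B7.10. BASP1 changed by 1.47 in B41-13 and 0.93 in B46-5 on the probe set with the larger DT40 change and by 1.20 and -0.05 on the other, so its probe sets disagree in B46-5. The other value above 0.5 in B46-5 was that of KDM1A, at 0.68, with 0.03 in B41-13. Genes singled out after their values were seen include LGALS1A, which changed by 1.15 in B41-13 and 0.06 in B46-5, GRAPL by 0.82 and -0.02, BCAT1 by 0.99 and 0.06, and ZPLD1 by 1.22 and 0.14 on the probe set with the larger DT40 change. FYN, also singled out so, changed by 0.55 in B41-13 and 0.36 in B46-5 on its brighter probe set. On its other called probe set FYN changed by 0.97 and -0.11, so its probe sets disagree as well. In B41-13 values between -0.25 and 0.17 were those of WBSCR17, SLC25A24, EAF1, KDM1A, PLPP4, ADPRH, PI15, 1 of the called PIK3CB probe sets and 2 probe sets with no symbol. PIK3CB changed by 0.08 in B41-13 and -0.05 in B46-5 on the probe set that rose by 0.92 in DT40, although at 2 h it stood at 1.53 in B41-13 and -0.03 in B46-5.

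Unstimulated cells at 24 h (C24) show whether time in culture alone moves these genes. In the same fit 554 of all probe sets differed between C24 and C6 (1.44%), and among the 41 there were 4. IL18 was at -1.13 log2 in C24 against C6 (adjusted p = 0.0272) and ADPRH at -0.50 (adjusted p = 0.00472), both opposite to their rise with stimulation. Their other probe sets did not pass. These were at -0.25 for IL18 (limma, adjusted p = 0.657) and at -0.24 and -0.14 for ADPRH (adjusted p = 0.217 and 0.46). KCNMB1 was at -0.51 (adjusted p = 0.0499), the direction it took with stimulation, and the probe set Gga.3242.1.S1_at at 0.61 (adjusted p = 0.0406). The 40 probe sets that rose had a median difference of -0.09 between C24 and C6. C6 is shared by both comparisons, so their values for a gene are not independent.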

How the data were processed

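Total RNA from pools of 10 repeated experiments was labelled and hybridised to Affymetrix chicken arrays, 1 pool per array, per the labels. The authors deposited log2 values, 1 for each probe set, and the submitters' processing notes name RMA. RMA subtracts background, forces arrays onto a common distribution and combines the probes of a set, so levels of different probe sets are not comparable and differences of dim ones are compressed. Neither its version nor a joint run of the 28 arrays is stated in the sources used here. Arrays have no read depth, and their number limits precision.

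The files hold 38535 probe sets, of which 153 controls and reporters were removed. Symbols came from the platform table, which gives 27168 tested probe sets a single symbol, 177 more than that and 11037 no symbol, for 13009 genes in all. Of these probe sets 26853 matched a RefSeq table (GRCg7b), which changed 0 symbols. Probe sets ending in _s_at or _x_at can match several transcripts.

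Samples were grouped by title. The 18 arrays of DT40 and B7.10 at S6, C6 and C24 were fitted as 6 groups plus the serum batch, with 10 residual degrees of freedom (12 without the batch), by limma 3.58.1 under R 4.3.3. Adjusted p are Benjamini-Hochberg over 38382 probe sets and a call is an adjusted p under 0.05. The block was used because the labels give arrays of a number the same serum batch. Deviations of S6 and C6 from their group means correlated by 0.172, 0.446 and 0.313 in the 3 batches of DT40. All arrays of the same number correlated by a median of 0.122 over 45 pairs. The median of -0.06 over 90 pairs of different numbers is no separate evidence, since the 3 deviations of a group cancel out.

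The comparison, the gene lists and the rules were chosen with earlier results of these data known. The 24 lists have 677 entries, of which 534 matched a measured symbol exactly. Named were the called genes up to 30, the 3 largest called probe sets with no symbol, the 3 list members of smallest p, BTK, genes called in the difference between lines, other probe sets of called genes, and uncalled genes of at least 1 log2 in all 3 pairs. Others are said to be chosen after their values were seen. One called gene is not reported here. Alternatives were no block, no dim probe sets, cyclic loess, trend and robust moderation, only the arrays compared, and leaving out arrays, serum batches or the arrays with disputed labels. Python 3.11.15 with pandas 2.3.3 made the tables, and matplotlib 3.10.9 drew the figures.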

Additional observations from a re-analysis of the deposited data

Results flagged for a closer look

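The response at 6 h differed between the lines for BASP1 and GRAPL, on 1 of 2 probe sets each, by the test of the difference itself. For BASP1 it was -2.21 ± 0.29 log2 in B7.10 minus DT40 (SE, n = 3 pairs per line; limma, adjusted p = 0.0251), and it lay between -2.61 and -1.86 over 21 alternatives, of which 11 kept the call, with adjusted p between 0.00195 and 1. For GRAPL it was -1.23 ± 0.18 (adjusted p = 0.037), between -1.35 and -1.10 over the same alternatives, of which 5 kept the call, with adjusted p between 0.00685 and 1. The uncalled probe sets were at -1.84 ± 0.33 for BASP1 and -0.27 ± 0.18 for GRAPL (limma, adjusted p = 0.165 and 0.918).

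MME changed by -0.15 log2 in B7.10, lower in S6 in each of its 3 pairs (-0.08, -0.01 and -0.35), and by 1.72, 1.45 and 1.32 in those of DT40. It was singled out for these opposite signs, but its change in B7.10 had an SE of 0.18 and did not pass (limma, adjusted p = 0.721). The other called MME probe set changed by 0.05 in B7.10, with 0.03 and 0.12 in serum batches 2 and 3, so it does not share the opposite sign. The uncalled MME probe set, near background in C6 of DT40, changed by 0.56 in DT40 and by -0.23 in B7.10. It was lower in S6 in each B7.10 pair (-0.59, -0.04 and -0.04) and passed in neither line (limma, adjusted p = 0.107 and 0.322). On the MME probe set named first, the difference in size was -1.64 ± 0.26 (adjusted p = 0.0955).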

How the results depend on the processing

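The 41 calls of the DT40 response became 17 without the block, 358 (267 higher and 91 lower) when fitted to the 6 arrays alone, and between 12 and 40 when 1 of these arrays was left out. Without all arrays of serum batch 1 or 2 there were 5 and 8 calls, and 33 without serum batch 3. The fit of 6 arrays has 2 residual degrees of freedom. Leaving out dim probe sets gave 42 calls, loess 31, trend and robust moderation 44, and the 9 DT40 arrays alone, an alternative chosen after seeing the data, 38. GRAPL and the brighter BASP1 probe set were called under each of 15 alternatives. For the difference between lines, a fit to the S6 and C6 arrays of both lines alone had 6 residual degrees of freedom. It called 2 probe sets, of which 0 were among the 2 of the main fit. The 2 calls of the main fit for this difference became 1 without the block and between 0 and 11 when 1 array was left out. They became 0, 0 and 4 without all arrays of serum batch 1, 2 or 3 (1151, 2743 and 1193 at an unadjusted p under 0.05; limma) and 0 without the arrays of disputed description (1850). The 10 probe sets at least 1 log2 higher in every pair became 22 without serum batch 3. Settings that leave out arrays test with fewer of them, and for the others the cause was not tested. No called change of a named gene turned direction under these alternatives. Of list medians under alternatives 290 moved by less than the spread between pairs and 70 by more. Loess moved the median of all probe sets by 0.003. The number of arrays limits what can be called, and K123, HAVCR1 on its dimmer called probe set and Gga.3242.1.S1_at rose from C6 levels near background.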
